A study of Mus musculus with 32 samples.

Results

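The nuclei described here came from the colon of C57BL/6 mice kept specific pathogen free at the Francis Crick Institute, and fall into 2 groups of 4 libraries: EGFP-positive nuclei, which the labels call neuronal, and EGFP-negative nuclei, which they call non-neuronal. The 8 libraries were taken by their labels, with no measured value, from the 32 of the series, which also holds the small intestine (SI) of these mice and both segments of mice from Bern. All mice carried the same agent. The virus AAV9-CaMKII-EGFPKASH had been injected into a vein, and tissue was taken 5 weeks later. EGFP was driven by the CaMKII promoter and tied to the nuclear envelope by a KASH domain, and the longitudinal muscle with the attached myenteric plexus was peeled off the gut, homogenised and sorted on DAPI and EGFP. A neuron that the virus missed, or in which the promoter was silent, would therefore fall in the EGFP-negative gate. The labels give no sex, no age and no share of neurons with EGFP, and do not say whether the 4 libraries of a group came from separate mice, so the p-values below measure the spread between these libraries only.

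As background, the myenteric plexus is the ganglionated nerve network between the muscle layers of the gut, and it drives peristalsis. Excitatory motor neurons release acetylcholine and tachykinins, and inhibitory motor neurons release nitric oxide, VIP and purines. Smooth muscle, interstitial cells of Cajal (pacemaker cells) and PDGFRA-positive cells receive these signals, while glia, resident macrophages, vessels and connective tissue surround the ganglia. Nuclear RNA is rich in unspliced and retained transcripts, so a level here is that of RNA in the nucleus.

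A level is in CPM, that is, a count divided by library size, on the scale of the fit (trimmed mean of M-values, TMM), as the mean ± SD over 4 libraries or as the values of libraries 1, 2, 3 and 4 in that order. Differences are log2 fold changes, neuronal minus non-neuronal, ± SE, with p-values from edgeR's quasi-likelihood test adjusted by Benjamini-Hochberg over all genes tested. "Rose" and "fell" are used of neuronal against non-neuronal nuclei where the adjusted p was under 0.05. Deposited totals ran from 3788206 to 6828347 counts in neuronal and from 4310395 to 8350887 in non-neuronal libraries, and a gene with no count in any library of a group could have had up to 0.156 CPM (neuronal) or 0.139 CPM (non-neuronal), a floor of 3 counts over the group that covers counting error only. Between 25675 and 26128 genes had counts in a neuronal library and between 27267 and 34994 in a non-neuronal one. RNA of the mitochondrial genome made up 0.83% to 1.39% of neuronal and 4.75% to 10.19% of non-neuronal counts. The first principal component (69.3% of the variance) separated the sorts, and on the second (13.5%) the libraries numbered 4 of both sorts lay apart from the others. In non-neuronal library 3 the macrophage and lymphocyte lists stood above the other 3 libraries, as given with those lists.

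Of 17843 genes tested, 6704 (37.6%) passed the threshold, 3155 (17.7%) higher and 3549 (19.9%) lower in neuronal nuclei. Counts of list members below are to be read beside these shares. The median log2 fold change over all genes tested was -0.01. Of the genes that passed, the share that fell grew with the size of the difference. At least 1 log2 unit was reached by 2756 genes that rose and 3334 that fell. At least 3 units were reached by 733 and 1707, and at least 5 by 30 and 692. In 6985 genes (39.1%) the 4 neuronal and the 4 non-neuronal libraries did not overlap, 18.8% higher and 20.4% lower. In bulk sorted nuclei, fewer nuclei of a type and less RNA per nucleus cannot be told apart.

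**Figure D1:**
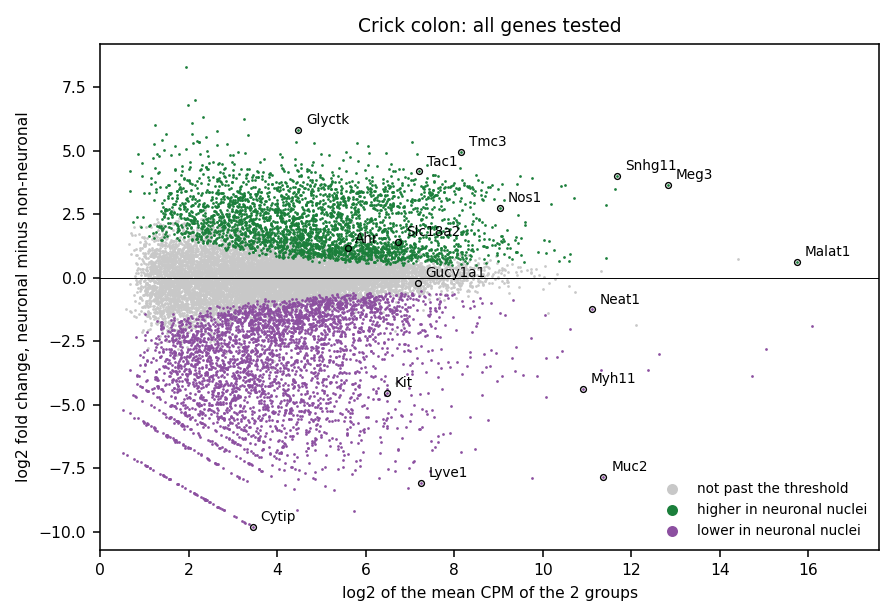
Each point is 1 of the 17843 genes tested, with the log2 of the mean CPM of both groups on the x axis and the log2 fold change (neuronal minus non-neuronal) on the y axis; green points rose, purple points fell and grey points did not pass the threshold. Rises rarely went past 5 log2 units (30 genes), while 692 genes fell by at least 5 units; the diagonal rows at the lower left are genes with 0 or very few counts in the neuronal libraries, whose fitted fold change is no measured size.

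The labelled sorts were checked against marker genes. All 20 pan-neuronal genes tested rose (median 3.12, range 1.53 to 4.07), beside 17.7% of all genes, and their summed level was 10217 to 11795 CPM in neuronal against 924 to 1781 CPM in non-neuronal libraries. Prph (ENSMUSG00000023484, chr15:99055174-99058978, plus strand, GRCm38), a peripheral neuron intermediate filament, had the largest fold change of the list: 163, 208, 299 and 722 CPM in neuronal against 14.2, 26.8, 10.9 and 30.6 CPM in non-neuronal nuclei (4.07 ± 0.53, adjusted p = 0.000134). Ret (ENSMUSG00000030110, chr6:118151745-118197718, minus strand, GRCm38), the receptor through which GDNF guides enteric neuron precursors, read 308, 293, 328 and 291 CPM against 29.4, 40.3, 21.4 and 42.2 CPM (3.19 ± 0.25, adjusted p = 8.46e-06). Both genes had every neuronal library far above every non-neuronal one. The smallest fold changes were those of Nefl, a light neurofilament chain (1.53), and Ncam1, an adhesion molecule that glia and muscle can also carry (1.59). Camk2a, whose promoter family drove EGFP, read 160.4, 134, 230.3 and 286 CPM in neuronal against 15.9, 18.5, 14.5 and 20.6 CPM in non-neuronal nuclei (3.54 ± 0.30), and Camk2b rose as well (3.12 ± 0.38), whereas Camk2d (0.42 ± 0.33) and Camk2g (-0.05 ± 0.25) did not pass. The 4 kinase genes were looked up after other values were seen.

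**Figure D2:**
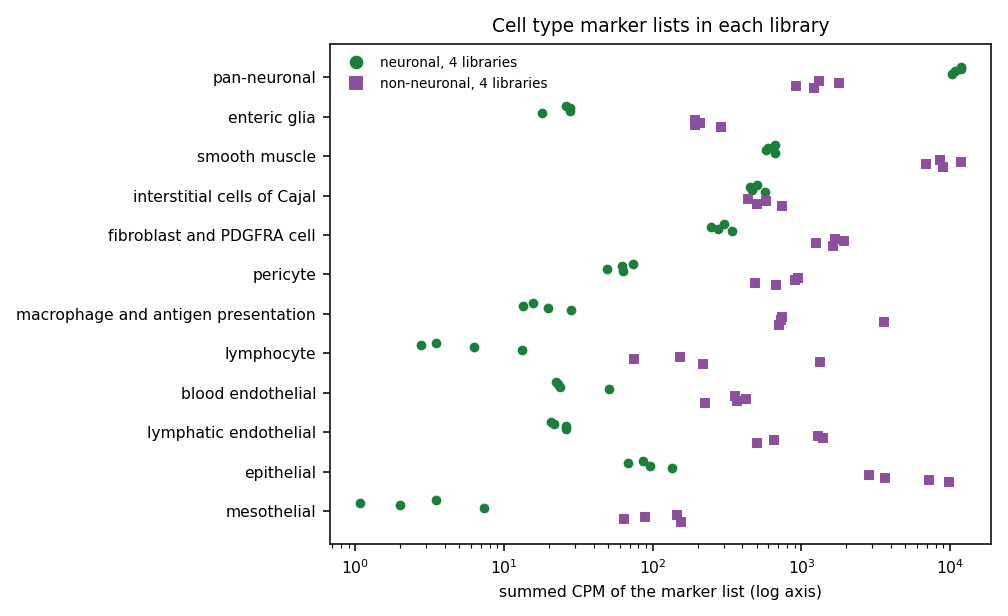
Summed CPM of 12 cell type marker lists (rows) in each library on a log axis, neuronal libraries as green circles and non-neuronal libraries as purple squares. The pan-neuronal sum lay higher in all 4 neuronal libraries, the sum for interstitial cells of Cajal overlapped, and the other 10 sums lay lower in all 4 neuronal libraries. In the neuronal libraries Etv1, which rose, and Cacna1h, which did not pass, made up most of the Cajal cell sum, while Kit, Ano1 and Prkcq fell. Non-neuronal library 3 stands out in the macrophage list (3590 CPM) and the lymphocyte list (1324 CPM).

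Genes that make and load the classical transmitters mostly rose: 8 of 11 tested (72.7%, beside 17.7% of all genes), with 1 fall (9.1%, beside 19.9%, median 2.37). Nos1 (ENSMUSG00000029361, chr5:117781032-117958840, plus strand, GRCm38), the neuronal nitric oxide synthase of inhibitory motor neurons, had the highest neuronal level per kilobase of exon (81.5 ± 26 CPM per kb); its libraries read 819.6, 625, 1312 and 878 CPM in neuronal against 91, 104, 113 and 225 CPM in non-neuronal nuclei (2.77 ± 0.34, adjusted p = 9.34e-05). The lowest neuronal library was still well above the highest non-neuronal one, library 4. Chat, which makes acetylcholine, read 127, 88.1, 138 and 157 CPM against 9.54, 10.5, 9.59 and 8.73 CPM (3.73 ± 0.26, adjusted p = 4.96e-06). Its partners, the choline transporter Slc5a7 (168 ± 35.9 against 11.9 ± 5.53 CPM) and the vesicular acetylcholine transporter Slc18a3 (44.1 ± 29.4 against 5.96 ± 1.58 CPM), also rose. The vesicular monoamine transporter Slc18a2 was high in both sorts, 140.4, 186, 136 and 158 CPM and 57.7, 68.9, 34.4 and 70.6 CPM, and rose by less (1.42 ± 0.26). Dbh, which turns dopamine into noradrenaline, rose to 13 ± 2.48 CPM from 3.48 ± 1.43 CPM, and the vesicular glutamate transporter Slc17a6 rose at a low level (14.2 ± 5.67 against 1.23 ± 0.688 CPM). Ddc, the aromatic amino acid decarboxylase that also serves epithelial endocrine cells, fell (-1.56 ± 0.36). Th, at the start of catecholamine synthesis, read 3.54 ± 1.45 against 1.83 ± 2.78 CPM and did not pass, but rose without non-neuronal library 4 (2.94, adjusted p = 0.00613). Slc32a1, the vesicular GABA transporter, had no count in any of the 8 libraries.

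Of 12 neuropeptide precursors tested, 8 rose (66.7%, beside 17.7% of all genes) and none fell (median 2.20). Tac1, the precursor of substance P, spread widely between neuronal libraries, 215, 279.9, 173 and 461 CPM, against 19.6, 28.4, 8.25 and 5.99 CPM (4.19 ± 0.53, adjusted p = 0.000103). Neuronal library 3 was the lowest of its group and lay above all non-neuronal libraries. Penk, the enkephalin precursor, read 90.7, 112, 90.5 and 215 CPM against 19.3, 15.7, 6.92 and 6.74 CPM (3.39 ± 0.44), and Vip, the co-transmitter of nitrergic neurons, read 113, 176, 84.5 and 18.9 CPM against 26.7, 32.7, 8.48 and 3.12 CPM (2.48 ± 0.74). The call for Vip was lost without neuronal library 2 or non-neuronal library 3 (adjusted p = 0.0541 to 0.0652). Gal, Grp, Cartpt and Adcyap1 (which gives PACAP) rose as well, with neuronal means of 28.9, 15.9, 12.4 and 4.13 CPM. Somatostatin (Sst) did not pass: its libraries read 80.9, 87.9, 65.1 and 67.3 CPM and 74.4, 52.4, 33.9 and 56 CPM, and the sorts overlapped. Per kilobase of exon, the neuronal levels ran 104 ± 15.2 CPM per kb for Sst, 83 ± 37.4 for Tac1, 77.7 ± 36.4 for Penk and 28.8 ± 19.2 for Vip, and the means of Sst, Tac1 and Penk lie within 1 SD of Tac1 of each other. Calca, Npy and Nts had at most 4 counts over the 4 neuronal libraries and were not tested.

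**Figure D3:**
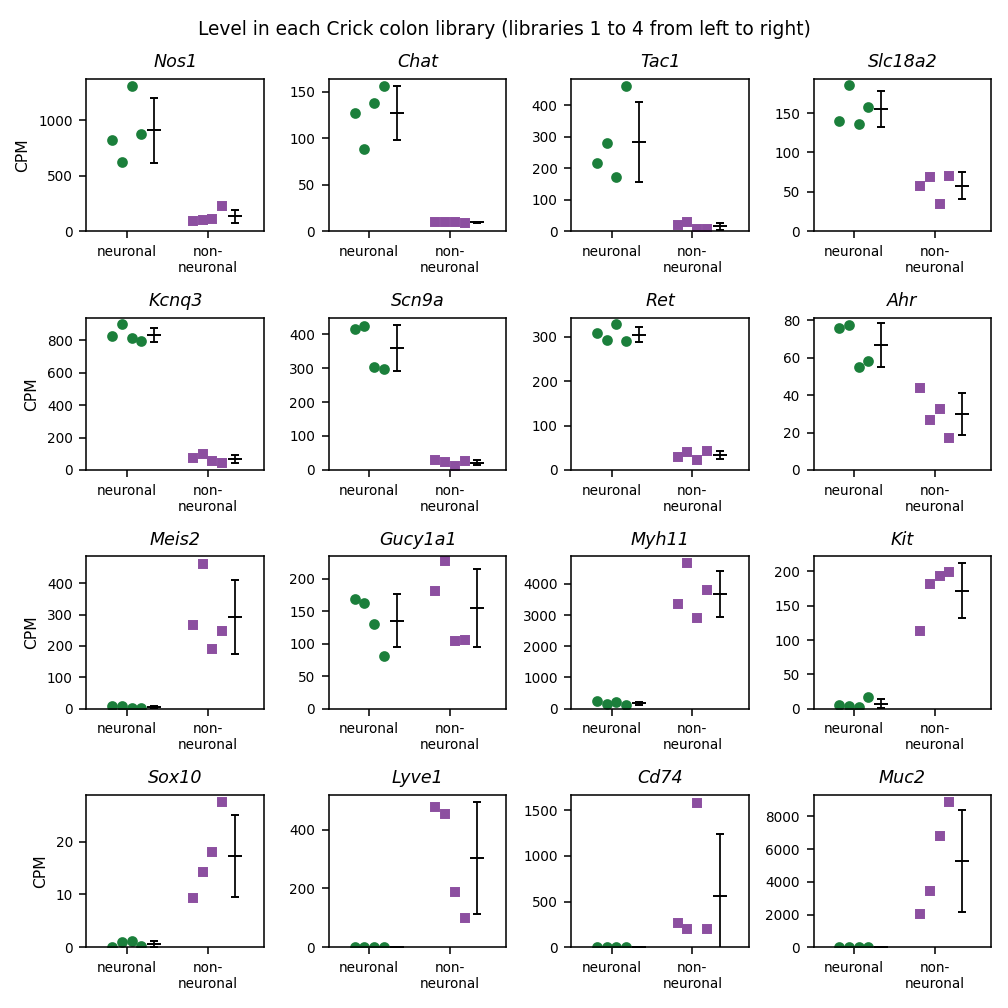
CPM of 16 list genes in each library, neuronal as green circles and non-neuronal as purple squares, with the mean and SD over 4 libraries in black and axes from 0 (an error bar that would reach below 0 is cut there). The sorts do not overlap except for Gucy1a1; Slc18a2 and Ahr are the rises with the smallest distance between the sorts, and Cd74 is set apart by non-neuronal library 3.

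Receptors on which enteric neurons receive input followed. Of 16 ionotropic receptors and mechanosensitive channels tested, 10 rose (62.5%, beside 17.7% of all genes) and 3 fell (median 2.53). The share that fell (18.75%) was near that of all genes (19.9%). Chrna3 and Chrnb4, which form the ganglionic nicotinic receptor, read 349, 341, 305 and 252 and 174, 146, 218 and 284 CPM in neuronal against 48.9, 44.7, 18.1 and 12.6 and 18.3, 25.6, 13.4 and 30.4 CPM in non-neuronal nuclei. Both were above the non-neuronal range in every neuronal library (3.33 ± 0.42 and 3.22 ± 0.32). Gria2, an AMPA receptor subunit, read 936 ± 313 against 83.8 ± 31.9 CPM, and Grik1, Gria4, Grin1 and the ATP receptor P2rx2 rose too, with fold changes from 2.46 to 3.10. The 3 falls were the ATP receptor P2rx7 of immune cells (-1.87 ± 0.36) and the mechanosensitive channels Piezo1 (-1.09 ± 0.32) and Piezo2 (-1.80 ± 0.23). The serotonin receptor subunits Htr3a (20.0 ± 9.86 against 9.28 ± 4.08 CPM) and Htr3b (4.39 ± 2.66 against 1.78 ± 1.54 CPM) did not pass, though Htr3a rose without neuronal library 4 (adjusted p = 0.0114). The call for Piezo1 was lost without any 1 of neuronal libraries 1 and 2 (adjusted p = 0.0566 to 0.0599).

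Of 15 metabotropic receptors tested, 9 rose (60.0%, beside 17.7% of all genes) and 3 fell (median 1.85). The share that fell (20.0%) was near that of all genes (19.9%). All 3 opioid receptor genes rose: Oprk1 (419.7, 432, 312 and 297 CPM against 45.7, 37.3, 16.5 and 40.5 CPM), Oprm1 (139 ± 10.4 against 11.7 ± 3.77 CPM) and Oprd1 (81.8 ± 20.5 against 16.5 ± 12.4 CPM). Per kilobase of exon, the kappa receptor gene Oprk1 had the highest neuronal level of the list (39.9 ± 7.71 CPM per kb). Muscarinic Chrm1 (2.63 ± 0.29) and the neuropeptide Y receptor Npy1r (1.85 ± 0.40) rose, whereas the substance P receptor Tacr1 (-2.20 ± 0.43), the cholecystokinin receptor Cckar (-3.02 ± 0.77) and the interleukin receptor Il13ra1 (-1.77 ± 0.32) fell. Tacr1 is also made by interstitial cells of Cajal.

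The list of genes through which muscle and interstitial cells receive motor transmission did not move as a block (median -0.41). Of 15, 2 rose (13.3%, beside 17.7% of all genes), 6 fell (40.0%, beside 19.9%) and 7 did not pass. The nitric oxide receptor subunits did not pass. Gucy1a1 read 168, 163, 130.4 and 80.8 CPM in neuronal against 181, 227, 105 and 105 CPM in non-neuronal nuclei (-0.19 ± 0.32), with overlapping libraries, and Gucy1b1 (-0.41 ± 0.23) and the cGMP-dependent kinase Prkg1 (-0.23 ± 0.31) did not pass either. Mrvi1, a target of that kinase in smooth muscle, fell from 138 ± 53.4 to 6.63 ± 1.85 CPM (-4.36 ± 0.35). The VIP and PACAP receptors split: Vipr1 fell (36.4 ± 22.6 to 0.314 ± 0.378 CPM), Vipr2 did not pass (0.10 ± 0.32) and Adcyap1r1 rose (237, 214, 319 and 455 CPM against 58.5, 81.2, 61.4 and 95.6 CPM, 2.04 ± 0.29). The serotonin receptor Htr2b, known from interstitial cells of Cajal, also rose (244, 291, 225 and 257 CPM against 62.9, 96.3, 25 and 25.1 CPM, 2.28 ± 0.41, adjusted p = 0.00112). The muscle tachykinin receptor Tacr2 and the adrenergic receptor Adra1a fell (-5.43 ± 0.74 and -4.45 ± 0.69), while muscarinic Chrm2 read 62.9 ± 32.6 against 66.7 ± 48.9 CPM and did not pass.

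Channels that set firing rose for the most part. Of 20 potassium channel genes, 16 rose (80.0%, beside 17.7% of all genes) and 2 fell (10.0%, beside 19.9%, median 2.65). Kcnq3, a subunit of the M-current channel, read 826, 899, 816 and 798 CPM in neuronal nuclei, against 76.3, 101, 55.3 and 43.8 CPM (3.59 ± 0.28). Kcnj6, a channel that G proteins open, and Kcnc2, a fast delayed rectifier, had the largest fold changes of the list (4.20 ± 0.37 and 4.19 ± 0.28). Kcna1, a Shaker channel, was the main exception, 0.5, 0.641, 0.748 and 0.152 CPM in neuronal against 29.6, 38.9, 32.3 and 33.1 CPM in non-neuronal nuclei (-6.05 ± 0.45, adjusted p = 6.52e-06), and its relative Kcna2 fell by less (-1.33 ± 0.32). Kcnma1, the large calcium-activated channel that muscle shares, rose by 1.15 from a high non-neuronal level (196 ± 50.4 CPM).

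Of 17 sodium, calcium and HCN channel genes tested, 13 rose (76.5%, beside 17.7% of all genes) and 1 fell (5.9%, beside 19.9%, median 2.46). Scn2a (625 ± 198 CPM), Scn9a (359 ± 68.5 CPM) and Scn8a (239 ± 79.9 CPM in neuronal nuclei) were among the voltage-gated sodium channels that rose, and Scn9a, the sodium channel known from pain neurons, had the largest fold change (414, 423, 303 and 297 CPM against 28.4, 22.2, 10.9 and 25.1 CPM, 4.05 ± 0.32). Among calcium channels the presynaptic N-type Cacna1b (3.34 ± 0.34) and P/Q-type Cacna1a (2.82 ± 0.35) rose, whereas Cacna1c, the L-type channel of muscle contraction, fell from 483 ± 151 to 282 ± 57 CPM (-0.78 ± 0.25). The call for Cacna1c was lost without any 1 of neuronal libraries 1, 2 and 4 or any 1 of non-neuronal libraries 2 and 4 (adjusted p = 0.054 to 0.101).

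Of the 20 genes of vesicles and release, 16 rose (80.0%, beside 17.7% of all genes) and none fell (median 2.69). The active zone scaffold Pclo read 2859, 2345, 2766 and 2158 CPM against 194, 251, 139 and 235 CPM (3.63 ± 0.25). Per kilobase of exon its neuronal level lay within 1 SD of that of Snap25, a SNARE protein of vesicle fusion (113 ± 14.9 and 105 ± 12.8 CPM per kb). Unc13a, which primes vesicles, rose from 43.4 ± 32.4 to 508 ± 343 CPM. Vamp2, the vesicle SNARE, did not pass, at 87.2 ± 33.6 and 106 ± 24.8 CPM, and neither did Stx1a and Rims1. Without non-neuronal library 4, Stx1a rose (adjusted p = 0.0133).

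Of 25 enteric neuron transcription factors tested, 14 rose and 4 fell (median 1.35). Phox2a, a homeobox factor of autonomic neurons, read 22.2 ± 12 against 1.45 ± 0.788 CPM (3.97 ± 0.56). St18 (3.83 ± 0.41), Pou3f3 (3.01 ± 0.35), Ebf3 (2.69 ± 0.26) and Tbx3 (1.35 ± 0.31) rose. Tlx2, whose loss disturbs the enteric nervous system, had the largest fold change at a low level (4.25, 3.63, 7.48 and 18.2 CPM against 0.245, 0.202, 0.223 and 0.125 CPM, 5.31 ± 0.77). Its non-neuronal values lay close to the floor of 0.139 CPM, so the size of this fold change is uncertain. Ahr, the aryl hydrocarbon receptor, which senses dietary and microbial ligands, read 75.9, 77.4, 55.1 and 58.2 CPM in neuronal against 43.8, 26.6, 32.3 and 16.8 CPM in non-neuronal nuclei (1.16 ± 0.30, adjusted p = 0.0104). Its sorts did not overlap, though non-neuronal library 1 came close to the lowest neuronal ones.

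On that list 4 of the 25 tested factors were lower in the neuronal nuclei, a smaller share than among all genes (19.9%). Meis2 (ENSMUSG00000027210, chr2:115863064-116065839, minus strand, GRCm38), a homeobox gene of neural crest and mesoderm, read 7.49, 7.7, 2.74 and 1.21 CPM against 266, 463, 192 and 248 CPM (-5.95 ± 0.57, adjusted p = 1.96e-05). Its paralogue Meis1 did not pass, 223, 206, 169.5 and 194 CPM against 186, 288, 127 and 140.5 CPM (0.10 ± 0.27). Satb1 and Zfhx3 fell by less (-0.67 and -1.20), and Isl1 had 2 counts over the 4 neuronal libraries and 139 over the non-neuronal ones, a ratio whose counting interval runs from 16.9 to 519. The call for Satb1 was lost without any 1 of neuronal libraries 1, 2 and 3 or any 1 of non-neuronal libraries 1, 2 and 3 (adjusted p = 0.0676 to 0.176). The call for Zfhx3 was lost without any 1 of neuronal libraries 1, 2 and 3 or non-neuronal library 4 (adjusted p = 0.0548 to 0.0675). Casz1 did not pass. Of 17 tested factors that mark other cells of the gut wall, 16 fell (94.1%, beside 19.9% of all genes) and 1 rose (5.9%, beside 17.7%). Gata6 (17.4 ± 4.69 to 0.176 ± 0.22 CPM), Gli3 (49.4 ± 17 to 0.795 ± 0.481 CPM), Foxf1 (19.8 ± 7.39 to 0.428 ± 0.721 CPM) and the endothelial factor Sox18 (no neuronal count, at least 63-fold lower) were among the falls, and Tcf4, which neurons also use, rose (1.48 ± 0.24).

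RNA-binding proteins went both ways: 12 of 24 rose and 8 fell. Celf3 read 728, 544, 1358 and 2757 CPM against 37.4, 69.3, 61.6 and 167 CPM (4.00 ± 0.60), with neuronal library 4 far above the others. The other neuronal splicing factors Celf4, Celf6, Srrm4, Srrm3, Khdrbs2 and Rbfox1 rose by 2.81 to 3.79. The falls included Rbpms (-4.61 ± 0.33) and Rbpms2 (-4.86 ± 0.60), known from smooth muscle, Esrp1 (-5.49 ± 0.61) and Esrp2 (-3.28 ± 0.73), splicing factors of epithelium, and Qk (-2.55 ± 0.34), known from glia and muscle. Ptbp1, which neurons switch off as they mature, fell from 139 ± 54.6 to 72.2 ± 18.4 CPM (-0.95 ± 0.31), while its neuronal relative Ptbp2 did not pass (415 ± 169 against 225 ± 105 CPM) but rose without neuronal library 4 (adjusted p = 0.0201). The call for Ptbp1 was lost without any 1 of neuronal libraries 1 and 2 or any 1 of non-neuronal libraries 3 and 4 (adjusted p = 0.0684 to 0.101). Rest, the repressor of neuronal genes outside neurons, fell from 48.6 ± 10.0 to 24.3 ± 3.46 CPM.

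Nuclear noncoding RNAs took a large part of the neuronal counts. Summed over the list they reached 90913 to 103257 CPM in neuronal against 38643 to 65637 CPM in non-neuronal libraries. Of 13 tested, 10 rose (76.9%, beside 17.7% of all genes) and 2 fell (15.4%, beside 19.9%). The 3 maternally expressed transcripts of the Dlk1-Dio3 imprinted region rose together: Meg3 (10461, 7370.0, 13524 and 22661 CPM against 591, 992, 885 and 1830.0 CPM, 3.65 ± 0.43), Rian (3.49 ± 0.27) and Mirg (3.39 ± 0.29). Snhg11 (5325, 4944, 6592 and 7991 CPM against 287, 399, 261 and 585 CPM, 4.02 ± 0.31), Snhg14 (2.90 ± 0.34) and Miat (3.46 ± 0.51) rose by like amounts. Malat1, highest of the list per kilobase in neuronal nuclei (9550.3 ± 774 CPM per kb), rose by 0.64 (73362, 68487, 61043 and 63868 CPM against 40754, 59429.9, 32365 and 38611 CPM, adjusted p = 0.04), and Neat1, the scaffold of paraspeckles, fell (-1.24 ± 0.22). The call for Malat1 was lost without any 1 of neuronal libraries 1 and 2 or any 1 of non-neuronal libraries 1, 3 and 4 (adjusted p = 0.0625 to 0.106). It was also lost with DESeq2 (adjusted p = 0.0622). Strand use in the counting is not given in the sources used here, so for Kcnq1ot1, Airn and Snhg14, which lie antisense to other genes, reads of the partner genes cannot be told apart.

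**Figure D4:**
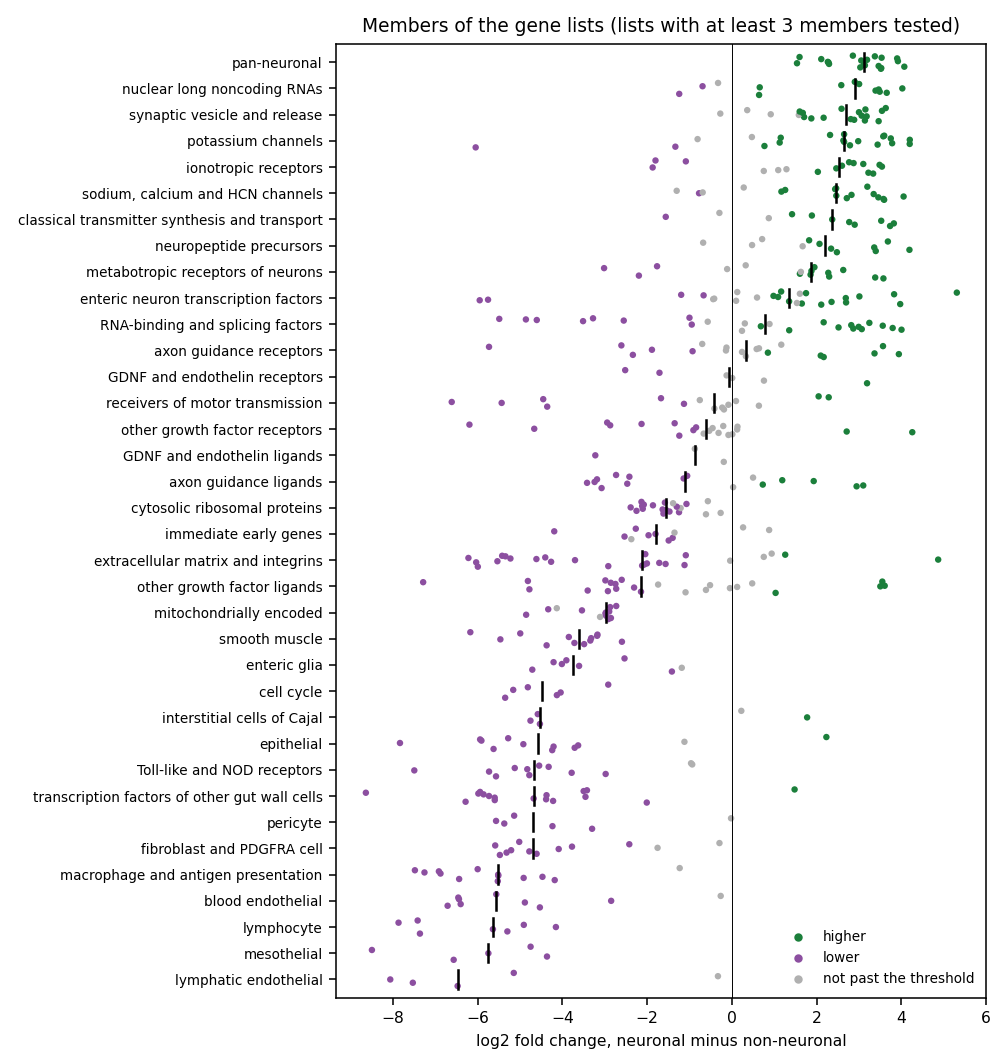
Each row is a gene list with at least 3 members tested and each point a member at its log2 fold change (neuronal minus non-neuronal), green where it rose, purple where it fell and grey where it did not pass; the black bar is the median. Medians run from -6.47 for the lymphatic endothelial list to 3.12 for the pan-neuronal list, and the lists of ionotropic, metabotropic and guidance receptors hold members on both sides of 0.

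Most markers of the other cell types were lower in the neuronal nuclei. All 12 smooth muscle genes fell (median -3.60), beside 19.9% of all genes. Myh11 (ENSMUSG00000018830, chr16:14194535-14291372, minus strand, GRCm38), the smooth muscle myosin heavy chain, read 232, 148, 203 and 128 CPM in neuronal against 3344, 4658, 2911 and 3808 CPM in non-neuronal nuclei (-4.37 ± 0.28, adjusted p = 3.86e-06). Muscle genes were thus low but not absent: the list summed to 573 to 667 CPM in neuronal against 6853 to 11849.5 CPM in non-neuronal libraries. Kcnmb1, the muscle subunit of the calcium-activated potassium channel, had the largest fold change (-6.17 ± 0.46) and the actin-binding Tagln the smallest (-2.60 ± 0.27).

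Of 5 genes for interstitial cells of Cajal, 3 fell and 1 rose. Kit, their growth factor receptor, read 5.75, 3.85, 2.74 and 16.5 CPM against 113, 181, 193 and 199.5 CPM (-4.53 ± 0.53, adjusted p = 6.4e-05), Ano1, the chloride channel of the pacemaker current, read 6, 3.21, 1.75 and 9.1 CPM against 112, 127, 119.6 and 197 CPM (-4.75 ± 0.46), and Prkcq fell too (-4.58 ± 0.59). Neuronal library 4 was the highest of its sort for Kit. Etv1, a factor of these cells that neurons also use, rose (384, 360.3, 299 and 250.3 CPM against 105, 109, 90.1 and 74.4 CPM, 1.77 ± 0.22), and Cacna1h, a T-type calcium channel, did not pass (0.22 ± 0.46). Among fibroblast and PDGFRA-cell genes 10 of 12 fell, with Pdgfra going from 127 ± 30.1 in non-neuronal to 2.73 ± 1.47 CPM in neuronal nuclei (-5.48 ± 0.39). Kcnn3, the potassium channel on which PDGFRA-positive cells respond to purines, did not pass (257, 205, 231 and 292 CPM against 283, 350.1, 251 and 324 CPM, -0.29 ± 0.20).

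Of 8 glial genes tested, 7 fell (median -3.76): Sox10 read 0, 1.07, 1.25 and 0.303 CPM against 9.3, 14.3, 18.1 and 27.4 CPM (-4.71 ± 0.70), and Erbb3 and Cdh19 fell by -4.01 and -4.21. S100b did not pass (-1.18 ± 0.53), though it fell without neuronal library 2 (adjusted p = 0.0474). The list summed to 18 to 27.9 CPM in neuronal against 191 to 287 CPM in non-neuronal libraries. Of 6 pericyte genes 5 fell, among them Rgs5 (424 ± 182 to 43 ± 11.2 CPM).

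Immune and vessel genes fell nearly throughout. Of 13 macrophage and antigen presentation genes 12 fell (median -5.53), and Cd74, the invariant chain, read 3.5, 2.35, 5.98 and 6.97 CPM against 263, 203, 1582 and 199 CPM (-6.88 ± 0.84). Non-neuronal library 3 held most of that RNA: the list summed to 3590 CPM there and to 702 to 741 CPM in the other 3. All 7 lymphocyte genes tested fell, with the same library at 1324 CPM and the others at 75.2 to 218 CPM. Without that library 12 of 13 macrophage genes and 5 of 7 lymphocyte genes fell. Of 9 blood endothelial genes 8 fell, with Cdh5 going from 51.2 ± 27.2 in non-neuronal to 0.464 ± 0.325 CPM in neuronal nuclei, while Vwf did not pass (20.0 ± 12 against 24.1 ± 13.8 CPM). Lymphatic endothelial genes had the lowest median of all lists (-6.47, 4 of 5 fell): Lyve1 read 1.25, 1.71, 0.997 and 0.606 CPM against 477, 452, 188 and 98.8 CPM (-8.06 ± 0.63, adjusted p = 8.2e-06), high in non-neuronal libraries 1 and 2 and lower in 3 and 4.

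RNA of epithelial genes, whose cells lie outside the peeled muscle layer, was abundant in the non-neuronal nuclei. The list summed to 2852, 3630, 7183 and 9865 CPM there and 68.6 to 134 CPM in neuronal libraries, and 10 of 12 fell. Muc2 alone made up most of that sum in every non-neuronal library, so the sum says little about the other epithelial genes. Muc2, the goblet cell mucin, read 22.2, 21.6, 19.4 and 29.1 CPM against 2054, 3418, 6784 and 8868 CPM (-7.83 ± 0.52). Chga, a granule protein of endocrine cells that neurons also make, rose (2.23 ± 0.34), and the stem cell marker Lgr5 did not pass. All 5 mesothelial genes tested fell. No adipocyte gene was tested; 1 of 1 acinar genes fell (Cela1) and 1 of 1 erythroid genes did not pass (Alas2, which rose without neuronal library 4, adjusted p = 0.0361).

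Ligands and receptors of developmental signalling went both ways. Ret rose, as given above, whereas its co-receptors Gfra1 (36.9 ± 3.94 against 21.8 ± 7.71 CPM) and Gfra2 (35.7 ± 7.19 against 35.4 ± 26.8 CPM) did not pass and Gdnf itself was at 8 ± 8.51 and 9.33 ± 5.52 CPM. Gfra1 rose without neuronal library 4 or non-neuronal library 4 (adjusted p = 0.0334 to 0.0445). The endothelin receptors Ednrb (-1.71 ± 0.34) and Ednra (-2.52 ± 0.42) and the ligand Edn1 (-3.22 ± 0.63) fell. Of 23 other growth factor ligands tested, 4 rose (17.4%, beside 17.7% of all genes) and 12 fell (52.2%, beside 19.9%). The neuregulins Nrg3 (303, 322, 283 and 226 CPM against 22.3, 31.2, 14.7 and 24.8 CPM, 3.60 ± 0.27) and Nrg1 (3.50 ± 0.31), Fgf13 (3.55 ± 0.39) and Csf1, the macrophage growth factor (28.2, 32.5, 40.9 and 36.5 CPM against 15.7, 23.6, 17.2 and 11.4 CPM, 1.03 ± 0.30), rose. Falls among the ligands included Bmp4 (-3.40 ± 0.36), Bmp2 (-2.93 ± 0.62), Igf1 (-4.82 ± 0.63), Tgfb2 (-2.99 ± 0.27) and Kitl, the ligand of Kit (-2.15 ± 0.40).

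Of 20 growth factor receptors tested, 2 rose (10.0%, beside 17.7% of all genes) and 9 fell (45.0%, beside 19.9%). The rises were the neurotrophin receptors Ntrk2 (119.9, 117, 113 and 132 CPM against 10.3, 8.26, 3.57 and 3.37 CPM, 4.25 ± 0.38) and Ntrk3 (423, 383, 383 and 337 CPM against 72.4, 71.4, 42.2 and 47.9 CPM, 2.71 ± 0.24). The BMP receptor Bmpr1a fell (-1.24 ± 0.40). The call for Bmpr1a was lost without any 1 of neuronal libraries 1, 3 and 4 or any 1 of non-neuronal libraries 1 and 2 (adjusted p = 0.0514 to 0.0919). Tgfbr2 had the largest fall of the list (-6.19 ± 0.58), and the hedgehog transducer Smo fell as well (-4.67 ± 0.47).

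Among axon guidance ligands 5 of 16 rose (31.25%, beside 17.7% of all genes) and 9 fell (56.25%, beside 19.9%). Slit2, a midline repellent, read 869.8, 972, 589.8 and 390.2 CPM against 110.3, 126, 52 and 41.9 CPM (3.10 ± 0.42), and Slit1 (2.94 ± 0.53) and Sema3e (1.93 ± 0.40) rose as well. Netrin Ntn1 (-3.08 ± 0.38) and the secreted semaphorins Sema3a (-2.47 ± 0.41), Sema3c (-3.42 ± 0.55) and Sema3d (-3.24 ± 0.61) fell. Of 19 guidance receptors, 6 rose (31.6%, beside 17.7% of all genes) and 5 fell (26.3%, beside 19.9%). The netrin receptors Unc5c (306, 372, 213 and 372 CPM against 28.9, 25, 14.7 and 14 CPM, 3.94 ± 0.32), Unc5d (3.36 ± 0.55), Dcc (2.17 ± 0.39) and Unc5a (2.10 ± 0.36) rose while the vascular Unc5b fell (-2.34 ± 0.48). Epha5 rose (589 ± 205 against 49.8 ± 22.4 CPM) and Epha7 fell (204 ± 115 to 33.5 ± 4.69 CPM).

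Matrix genes were mostly lower in neuronal nuclei: 20 of 25 fell (80.0%, beside 19.9% of all genes) and 2 rose (8.0%, beside 17.7%, median -2.12). Fn1 (-4.61 ± 0.35), Tnxb (-6.22 ± 0.35), Tnc (-5.23 ± 0.30) and the integrin Itga1 (-5.34 ± 0.50) fell. Col25a1, a membrane collagen of neurons, was the largest exception, 341, 364, 241 and 155 CPM against 13.9, 15.9, 5.13 and 3.12 CPM (4.87 ± 0.54, adjusted p = 4.66e-05), and the integrin Itga8 rose as well (1.26 ± 0.36). The call for Itga8 was lost without non-neuronal library 3 (adjusted p = 0.0513).

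Innate sensors were low in neuronal nuclei. Of 12 Toll-like and NOD receptor genes and adaptors tested, 10 fell (median -4.67). Tlr4, the lipopolysaccharide receptor, read 1.75, 3.63, 0.249 and 0 CPM against 32.3, 18.3, 16.3 and 10.2 CPM (-3.78 ± 0.86), Tlr2 fell by -4.78, and Tlr6 had no neuronal count (at least 28-fold lower). The adaptor Myd88 and Nlrp6 did not pass (-0.96 ± 0.42 and -0.94 ± 0.45), and Nlrp6 fell without non-neuronal library 2 (adjusted p = 0.0449).

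Markers of cell state and RNA makeup also moved with the sort. Of 11 immediate early genes tested, which handling can induce, 7 fell and none rose, among them Fos (-1.49 ± 0.44), Jun (-2.54 ± 0.37) and Egr1 (-1.80 ± 0.45). The call for Fos was lost without non-neuronal library 3 (adjusted p = 0.0661). All 6 cell cycle genes tested fell, with Mki67 at 2.5, 1.93, 1.25 and 17.9 CPM in neuronal against 379, 66.1, 222 and 347 CPM in non-neuronal nuclei. Of 13 mitochondrially encoded genes 11 fell (median -2.98), and of 20 cytosolic ribosomal protein genes 15 fell (median -1.57). The part of RNA makeup in the other differences was not tested beyond leaving the mitochondrial genes out before scaling, which gave 6756 calls, 6602 of them shared with the 6704.

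Outside the lists, the genes with the largest rises were led by Fibcd1, an acetyl-group receptor, and Glyctk, glycerate kinase. Fibcd1 had 159 counts over the neuronal and 2 over the non-neuronal libraries, a ratio whose counting interval runs from 24.2 to 739.7. Glyctk read 33.2, 34.2, 47.9 and 60.0 CPM against 0, 1.41, 1.11 and 0.499 CPM (5.82 ± 0.59). Syt10, a calcium sensor of regulated secretion, Lncenc1, a noncoding RNA, Tmem169 and Slitrk4, an adhesion protein of synapses, rose by 5.55, 5.34, 5.25 and 5.21. Tmc3, of the family of mechanotransduction channels, combined a large rise with a high level, 570.1, 513, 554 and 569 CPM against 21.8, 28.4, 10.5 and 10.1 CPM (4.97 ± 0.37, adjusted p = 6.52e-06). Iqcj, Car10, Ano5, Tmem145, Gnb3, Galnt9, Nudt11 and Pcdha4 followed, with fold changes from 4.49 to 4.88. Pcdha4 shares its last exons with the other alpha protocadherins, so its count is uncertain. Among genes that rose by at least 4 units the highest neuronal CPM was that of Syt6, of the synaptotagmin family, which was also the highest of these genes per kilobase (117 ± 8.22 CPM per kb): 736, 623, 699.7 and 671 CPM against 47.7, 49.2, 24.3 and 45 CPM (4.04 ± 0.26). Lrp1b (536 ± 136 CPM in neuronal nuclei), Stxbp5l, which binds syntaxin (375 ± 80.3 CPM), Ctnna2 (348 ± 41.4 CPM), the sulfonylurea receptor Abcc8 (245 ± 187 CPM), the calcium pump Atp2b2 (219 ± 91.8 CPM), Cntn5 and Add2 came next.

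The 15 named genes with the largest falls outside the lists had no count in any neuronal library, so each fall is a lower bound. Cytip, an adaptor of leukocyte adhesion, read 11, 6.25, 58.7 and 11.7 CPM in the non-neuronal libraries and was at least 129-fold lower. Foxd2os (at least 131-fold), which lies antisense to Foxd2, and Pck1, of gluconeogenesis (at least 131-fold), had the largest bounds beside it. Cldn5, the endothelial tight junction protein (at least 82.7-fold), Itgax, an integrin of dendritic cells (at least 89.8-fold), and the epithelial genes Ap1m2, Foxa3, Capn9, Creb3l4, Mall and Tmem171 (at least 67.4 to 90.4-fold) were in the group. The others were Igfbp6, Ccm2l, Cd177 and Clec2i.

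Promoters of the genes that fell were searched for the CArG box, the site of serum response factor, which drives muscle genes, and those of the genes that rose for the RE1 element, the site of the Rest repressor. Sequences are RefSeq's, from a table that spans 250 bases before to 50 after each gene's start (GRCm38.p6). Both strands were searched and the motifs are given by name, since their patterns allow several bases at some positions. A gene was counted once if any of its promoters held a match. A CArG box stood before 60 of 2413 matched genes that fell (2.49%) and 28 of 1774 that rose (1.58%). It stood in promoters of 177 of 11452 matched genes of all tested (1.55%) and 488 of all 27025 genes with a promoter sequence (1.81%). None of the 8 matched genes of the smooth muscle list held one in this window, while 1 of 10 matched pan-neuronal genes did (Elavl4, which rose by 3.52). An RE1 element stood in promoters of 5 of 1774 matched genes that rose (0.28%) and 0 of 2413 that fell. It stood in those of 10 of 11452 matched genes of all tested (0.09%) and 21 of all 27025 genes with a promoter sequence (0.08%). None of the 10 matched pan-neuronal and 14 matched vesicle and release genes held one in this window. A match is a run of letters and not a bound site. The examples were chosen after their values were seen, for a role in muscle or at synapses, and are written 5′ to 3′ on the gene's strand with the match in capitals.
Myom1, chr17:71019443-71019482, plus strand: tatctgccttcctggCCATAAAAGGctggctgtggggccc
Actg1, chr11:120348561-120348600, minus strand: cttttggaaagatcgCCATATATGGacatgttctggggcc
Vcl, chr14:20929156-20929195, plus strand: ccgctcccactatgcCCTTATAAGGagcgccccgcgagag
Myl9, chr2:156775288-156775327, plus strand: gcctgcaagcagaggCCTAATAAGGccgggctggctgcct
Gria2, chr3:80802974-80803020, minus strand: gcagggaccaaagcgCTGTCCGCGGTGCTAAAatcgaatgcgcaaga
Myom1, a sarcomere protein, fell from 728, 1323, 554 and 806 CPM to 19.7, 18.4, 18.4 and 14.4 CPM (-5.59 ± 0.32), the cytoskeletal actin Actg1 by -2.69, the adhesion protein Vcl by -2.78 and the myosin light chain Myl9 by -2.88. Gria2, the AMPA receptor subunit described above, is 1 of the 5 genes with an RE1 match that rose (1099.6, 1251, 860.0 and 534 CPM against 105, 115, 48.4 and 65.8 CPM, 3.48 ± 0.36). The other 4 were Ogdhl, Crip2, Lhfpl5 and Amer3. The call for Lhfpl5 was lost without any 1 of neuronal libraries 1, 2, 3 and 4 or any 1 of non-neuronal libraries 1 and 2 (adjusted p = 0.059 to 0.104).

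The same contrast in the colon of Bern mice gave a difference between the facilities for 4 of 19159 genes (0.0209%), 3 with a higher (0.0157%) and 1 with a lower fold change at the Crick (0.00522%), tested as an interaction over 16 libraries scaled together. Jph2, a junction protein of muscle, fell in both, from 39.9 ± 12.7 to 2.36 ± 1.3 CPM at the Crick and from 141 ± 40.5 to 0.131 ± 0.263 CPM in Bern, where 2 neuronal counts remained (difference 5.62 ± 0.96, adjusted p = 0.0478). Erc2, an active zone protein, rose by more at the Crick (534 ± 68.2 against 37.6 ± 14.2 CPM) than in Bern (257 ± 76.9 against 109.6 ± 26.3 CPM, difference 2.59 ± 0.44). Kcnh4, a potassium channel, read 1.82 ± 0.983 and 1.34 ± 0.489 CPM at the Crick, and 21.9 ± 9.34 CPM against no count in Bern, where it was at least 109-fold higher. The remaining gene is a predicted one. No pan-neuronal gene passed, but the median difference of that list was 1.32 beside 0.11 over all genes. Its median fold change was 3.11 at the Crick and 2.04 in Bern. This shift of the list was not tested. Leaving out 1 library gave 0 to 5 calls, and it gave 0 for each of the 8 non-neuronal libraries, for Bern neuronal library 2 and for Crick neuronal library 3. With the replicate number as a block Jph2, Erc2 and Kcnh4 did not pass (adjusted p = 0.0556 to 0.134).

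Against the small intestine of the Crick mice, 527 of 20664 genes differed (2.55%), 93 with a higher and 434 with a lower fold change in colon. Genes of interstitial cells, vessels and macrophages were among them. Kit fell in colon (158 ± 41 to 6.62 ± 5.85 CPM) but was higher in the EGFP-positive nuclei of SI (453 ± 89.2 against 122 ± 106 CPM), a difference of -6.43 ± 0.77 (adjusted p = 0.000147). In SI the EGFP-positive libraries read 566, 468, 353 and 424 CPM and the EGFP-negative ones 71.9, 49.6, 87.3 and 279 CPM. Ano1 (difference -5.81 ± 0.58) and Prkcq (-6.97 ± 0.74) did the same, with 401 ± 114 and 163 ± 53.6 CPM in EGFP-positive nuclei of SI against 4.59 ± 3 and 0.85 ± 0.665 CPM in colon. Of 5 lymphatic genes 4 differed: Lyve1 read 273 ± 162 CPM in colon and 9.67 ± 3.05 CPM in SI non-neuronal nuclei (difference -6.64 ± 0.73), and Prox1, the lymphatic master factor, 146 ± 33.8 and 12.7 ± 5.47 CPM (difference -6.08 ± 0.70). Of 9 blood endothelial genes 4 differed, among them Eng (-4.70 ± 0.60) and Emcn (-4.66 ± 0.95), and of 13 macrophage genes 5, among them Cx3cr1 (-4.37 ± 0.75) and H2-Aa (-4.85 ± 0.92). Mitochondrial RNA was 2.76% to 15.99% of the EGFP-positive libraries of SI against 0.83% to 1.39% in colon, and its part in these differences was not tested.

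Some neuronal genes also had a lower fold change in colon. Nos1 read close levels in the neuronal nuclei of both segments (826 ± 249.6 CPM in colon, 725 ± 324 CPM in SI) but read 124 ± 62.7 CPM in non-neuronal nuclei of colon and 13.5 ± 8.2 CPM in SI (difference -2.99 ± 0.60, adjusted p = 0.0104). Chat showed the same form, with 116 ± 26.3 and 138 ± 27.2 CPM in neuronal nuclei and 8.77 ± 0.397 and 1.36 ± 0.518 CPM in non-neuronal nuclei (-2.86 ± 0.38). Of the 20 pan-neuronal genes only Snap25 passed (adjusted p = 0.0476), while the median difference of the list was -1.28 beside -0.16 over all genes. Pou3f3 (97.6 ± 13.1 CPM in colon, 1.58 ± 0.683 CPM in SI neuronal nuclei, difference 4.52 ± 0.92), Col25a1 (251 ± 88.7 and 16 ± 8.19 CPM, 4.26 ± 0.65), Sema3e (59.6 ± 35.9 and 7.25 ± 2.3 CPM, 4.43 ± 0.55) and Ahr (60.8 ± 11.1 and 9.36 ± 2.53 CPM, 1.84 ± 0.46) had higher fold changes in colon. Meis2 fell in both segments and by more in colon (4.37 ± 3.04 CPM left in neuronal nuclei against 152 ± 44.8 CPM in SI, -3.99 ± 0.58). The call for Ahr was lost in 12 of 16 fits with 1 library left out (adjusted p = 0.0521 to 0.0936), all but those without colon non-neuronal library 1, colon neuronal library 4, SI non-neuronal library 2 or SI neuronal library 3. The call for Snap25 was lost in 14 of 16 fits with 1 library left out (adjusted p = 0.0504 to 0.12), all but those without colon non-neuronal library 3 or SI non-neuronal library 4.

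The largest named difference upward was that of Grm8, a glutamate receptor that rose in colon (1.94 ± 0.45) and fell in SI (-4.14 ± 0.47), a difference of 6.08 ± 0.65, and the secretin receptor Sctr had one of 4.61 ± 0.81. Downward, Sytl2, a synaptotagmin-like protein of vesicle docking, read 1.69 ± 1.16 CPM in neuronal against 248 ± 57.9 CPM in non-neuronal nuclei of colon against 165 ± 65.8 and 127 ± 19 CPM in SI (difference -7.61 ± 0.57). Hoxa10, a posterior homeobox gene, read 15.8 ± 7.52 CPM in non-neuronal nuclei of colon with 1 count over the neuronal libraries, and 0.223 ± 0.365 and 0.105 ± 0.209 CPM in SI, so its fitted difference is no measured size. The call for Hoxa10 was lost without SI neuronal library 2 (adjusted p = 0.216). The count of differences depended on the fit: it was 33 when all 32 libraries shared 1 estimate of the spread and 278 without SI libraries numbered 2 and non-neuronal colon library 3.

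**Figure D5:**
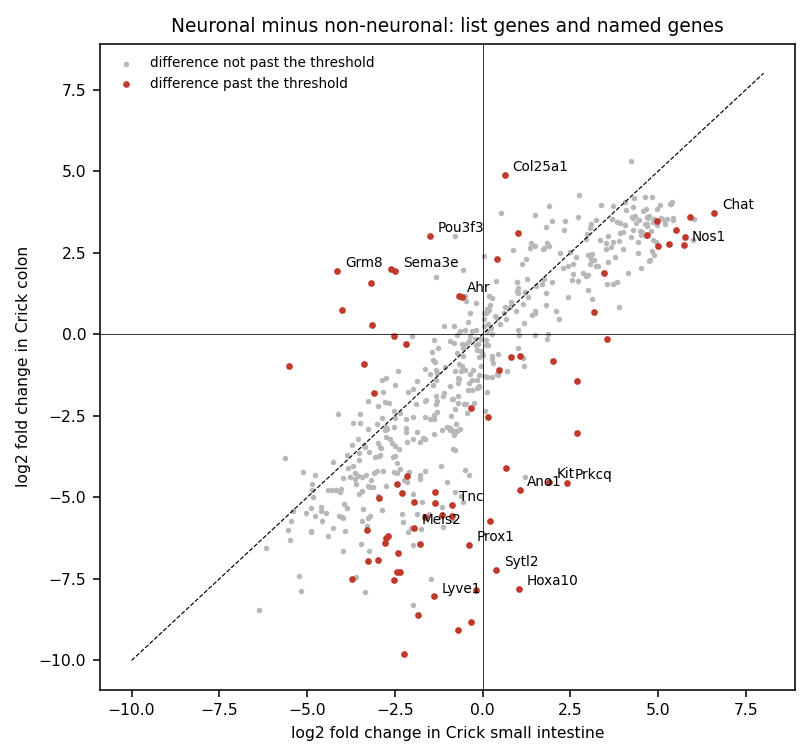
Each point is a gene of the lists or a named gene, at its log2 fold change (neuronal minus non-neuronal) in Crick small intestine (x axis) and Crick colon (y axis), fitted over 16 libraries; red points differ between segments past the threshold and the dashed line marks equal fold changes. Kit, Ano1 and Prkcq lie at positive values in small intestine and negative values in colon, and most red points lie below the line.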

How the data were processed

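Nuclear RNA was turned into cDNA with the Ovation RNA-Seq System V2 and sequenced as single-end reads, per the labels' protocols. Expected counts for the 32 libraries, with Ensembl gene identifiers, came in a single table that the authors deposited. GRCm38, STAR 2.5.2, RSEM 1.3.0 and DESeq2 1.10.1 are named in the submitters' processing notes, and the Ensembl release, the strand setting and the order of use are not given in the sources used here. Of 51912 identifiers, 51719 were matched to GENCODE M21 for symbols and coordinates.

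Expected counts were rounded to whole numbers. The fit used edgeR 4.0.16 in R 4.3.3 on the 8 libraries (TMM scaling, filterByExpr, quasi-likelihood test, Benjamini-Hochberg adjustment, threshold 0.05), with groups taken from the labels, and was tested on simulated counts. An SE is the absolute fold change over the square root of the test statistic. The 2 interactions used 16 libraries each. The 39 gene lists (560 different genes) were described and not tested. Members, lists and the contrast were chosen with earlier results of these data known. Named genes are list members marked as key, the 4 most abundant of each list and any of a list of 7 or fewer. Outside the lists they are the 15 largest changes each way with at least 5 CPM in the higher sort, no overlap and no predicted name, the 10 with the highest neuronal CPM among rises of at least 4 log2 units, and the 6 largest each way per interaction. Others were chosen after their values were seen. Other scalings, tools (DESeq2 1.42.0, limma 3.58.1), filters and left-out libraries were run as alternatives. Replicate numbers were not used to pair libraries: the deviations of same-numbered libraries correlated by 0.073 to 0.313, over 0.1 in 3 of 4 pairs. Some genes of the lists are counted in them but not reported here by name.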

Additional observations from a re-analysis of the deposited data

Results flagged for a closer look

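Of 78 groups of 4 libraries examined for the summed CPM of a gene list, 5 held 1 library far from the other 3, and chance gives about 1 in 20 groups. Non-neuronal library 3 stood at 3590 CPM for the macrophage and antigen presentation list (others 702 to 741 CPM) and at 1324 CPM for the lymphocyte list (others 75.2 to 218 CPM). Non-neuronal library 4 stood at 287 CPM for the enteric glia list (others 191 to 207 CPM). Neuronal library 4 stood at 50.6 CPM for the blood endothelial list (others 22.5 to 23.7 CPM) and at 28.8 CPM for the cell cycle list (others 5.48 to 6.25 CPM).

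Some genes were marked because the fold change between the sorts differed from that of another group in an interaction test. Against the colon of Bern mice the differences were 5.62 for Jph2, 2.59 for Erc2 and -9.13 for Kcnh4, and of 16 fits with 1 library left out Jph2 was lost in 14, Erc2 in 15 and Kcnh4 in 16. Against the SI of Crick mice the higher fold changes in colon differed by 6.08 for Grm8, 4.74 for Cyp1b1, an enzyme that Ahr induces, 4.73 for Myrfl, 4.61 for Sctr, 4.53 for Lvrn and 4.52 for Pou3f3. Of these, Grm8, Sctr and Pou3f3 held in all 16 fits with 1 library left out, while Cyp1b1 was lost in 13, Myrfl in 12 and Lvrn in 6. The lower ones differed by -8.85 for Hoxa10, -8.50 for Ap1m2, -8.38 for Cldn5, -7.65 for Aqp4, -7.61 for Sytl2 and -7.57 for Cytip. Sytl2, Aqp4 and Cytip held in all 16 such fits, Hoxa10 and Cldn5 were lost in 1 and Ap1m2 in 12. Ap1m2, Cldn5 and Cytip had no count in the neuronal libraries of colon, and Hoxa10 and Aqp4 had 1. Kcnh4 had none in Bern non-neuronal libraries, and Jph2 was under the floor of 3 counts in Bern neuronal libraries. The differences of these genes come from the fit and not from a measured ratio.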

How the results depend on the processing

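For neuronal against non-neuronal nuclei, leaving out 1 library gave 5980 to 8037 calls (2717 to 3577 higher, 3263 to 4460 lower), the fewest without non-neuronal library 3 and the most without neuronal library 4. DESeq2 called 5774 genes lower and edgeR without a filter on low counts 5715, both with 43308 genes tested in place of 17843. One fit of all 32 libraries called 4005 (1605 higher), 3545 of them shared with the 6704, and a test against a fold change of 2 called 4127 (1703 higher). The replicate block gave 7903 calls, 6599 shared, and 7 of 8 libraries correlated best with the library of their own number, a hint from the data and not from the design. Of 218 named calls, 205 held in every fit with 1 library left out. Some of these genes were named for their large differences in these same libraries, so this share does not speak for the other calls. Of all 6704 calls, 5698 to 6335 were shared with each fit that left out 1 library. The fit of all 32 libraries ended 28 of the named calls (adjusted p up to 0.31): Ahr, Airn, Bmp2, Cacna1c, Cckar, Cela1, Chga, Crip2, Csf1, Dbh, Dcc, Ddc, Ednrb, Egr1, Fos, Grm8, Grp, Il13ra1, Kcnq1ot1, Kitl, Lhfpl5, Nefl, Piezo1, Ptbp1, Rest, Satb1, Unc5a and Unc5b. The test against a fold change of 2 ended 25. Malat1 was lost with size factors as in DESeq2 (adjusted p = 0.0613) and with DESeq2 (0.0622), Bmpr1a and Cela1 with limma-voom, and Airn and Satb1 without a filter. With the replicate block Camk2d, Casz1, Gfra1, Ptbp2 and Stx1a passed (adjusted p = 0.00118 to 0.0485), and without a filter Ptbp2 and Stx1a. The sign of some genes near 0, none of them called, turned: Gfra2 (-0.054 with size factors as in DESeq2, -0.051 with DESeq2, -0.008 without a filter, -0.053 without mitochondrial genes), Chrm2 (0.093 with limma-voom, 0.063 with the replicate block) and, with 1 library left out, Cacna1h (-0.23 to 0.70), Camk2g (-0.17 to 0.078), Chrm2 (-0.38 to 0.43), Gdnf (-1.24 to 0.20), Gfra2 (-0.20 to 0.70), Gucy1a1 (-0.35 to 0.061), Meis1 (-0.056 to 0.39), Prkg1 (-0.45 to 0.059), Vipr2 (-0.047 to 0.34) and Vwf (-0.75 to 0.013).

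Against Bern colon, leaving out 1 library gave 0 to 5 calls (0 to 4 higher, 0 to 1 lower), 1 fit of all 32 libraries gave 1 (1 higher, 0 lower), and leaving out Bern non-neuronal libraries 1 and 2 with Crick non-neuronal library 3 gave 0, 0 and 0. DESeq2 called 244 (127 higher, 117 lower) and edgeR without a filter 360 (203 and 157), against 2053 genes at an unadjusted p under 0.05 where edgeR called 4. The replicate block gave 5 calls, 1 of them shared, and Jph2 (adjusted p = 0.0612), Erc2 (0.0556) and Kcnh4 (0.134) were lost, as they were in the fit of all 32 libraries. Against Crick SI, leaving out 1 library gave 310 to 634 calls (49 to 128 higher, 258 to 506 lower), the fewest without neuronal colon library 1. DESeq2 called 1054 (218 higher, 836 lower), limma-voom 231 (168 lower), edgeR without a filter 947 (167 and 780), the replicate block 1006 (244 and 762), and 1 fit of all 32 libraries 33 (11 and 22). Without SI libraries numbered 2 and colon non-neuronal library 3 there were 278 (53 and 225). Of 28 named differences from SI, the fit of all 32 libraries ended 18, limma-voom 10, the 3 libraries left out together 6 (Ahr, Ap1m2, Cldn5, Cyp1b1, Hoxa10 and Myrfl), the replicate block 3 (Ap1m2, Cldn5 and Myrfl) and size factors as in DESeq2 1 (Snap25). DESeq2 and edgeR without a filter had more genes tested, 43898 in place of 19159 against Bern colon and 46405 in place of 20664 against Crick SI. Against Bern colon each of them held the 4 calls of the main fit. The cause of these shifts was not tested. Depth limits genes under the floors of 0.156 and 0.139 CPM.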

Other observations

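Some pairs of related genes took opposite sides of the sort, all past the threshold. The potassium channel subunit gene Kcnma1 had means of 435 CPM (neuronal) and 196 CPM (non-neuronal), while its muscle partner Kcnmb1 had 1.33 and 94.5 CPM. The ephrin receptor genes Epha5 (589 and 49.8 CPM) and Epha7 (33.5 and 204 CPM) and the netrin receptor genes Unc5c (315 and 20.6 CPM) and Unc5b (3.19 and 16.7 CPM) did so as well. The homeobox pair was not among these, since Meis2 fell (4.79 and 292 CPM) but Meis1 did not pass (198 and 185 CPM).

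Non-neuronal nuclei held 924 to 1781 CPM of the pan-neuronal list, with Nos1 at 133 CPM, Slc18a2 at 57.9 CPM and Sst at 54.2 CPM. The part of neurons without EGFP in these levels was not tested.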
